A study of Mus musculus with 6 samples.

Results

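The genes examined here make and handle cholesterol: 19 enzymes of its synthesis (8 of the mevalonate steps and 11 of the sterol steps), 5 genes that sense sterols, and 5 that move cholesterol and lipoprotein lipids. They are a list of 29 named genes, matched to the target genes of 2 enhancer prediction tables by Ensembl identifier. Of the 29 genes, 23 were listed as a target in at least 1 table, among 32049 target genes in all. The list was set by gene function, and no measured value entered its rule.

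The data come from 6 HiChIP libraries for H3K27ac, the histone mark of active enhancers and promoters, 3 from Ctr-OPCs and 3 from IFN-γ-OPCs. Oligodendrocyte precursor cells (OPCs) were cultured from the brains of pups at postnatal day 4 to 6, of both sexes, of the strain C57BL/6j and the genotype Sox10-Cre/RCE in the labels (the RCE animals of the cross were of a mixed C57BL/6 and CD1 background), in which the Sox10 promoter drives Cre and EGFP marks the whole oligodendrocyte lineage. Cells were isolated by sorting on EGFP or with magnetic beads against CD140a, a surface marker of OPCs, and which of these was used for a library is not given in the sources used here. Several brains were pooled for a culture, and different litters gave the libraries of a condition. Both groups grew in the same proliferation medium with bFGF and PDGF-AA. IFN-γ-OPCs also received the cytokine IFN-γ at 100 ng/mL, starting 24 h after passaging and lasting 48 h, while Ctr-OPCs received none.

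Cholesterol is built from acetyl-CoA in a chain of reactions that passes through mevalonate, farnesyl pyrophosphate, squalene and lanosterol. When sterols in the endoplasmic reticulum are low, the escort protein SCAP carries the SREBP transcription factors to the Golgi, where they are cut and released, and they then bind sterol regulatory elements in the promoters of the synthesis genes, often beside CCAAT boxes bound by NF-Y. INSIG proteins hold SCAP back when sterols are plentiful. Oligodendrocytes use large amounts of cholesterol for myelin, and the brain makes its own supply.

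The activity-by-contact (ABC) model weighs each regulatory element near a gene by its activity, a signal from chromatin accessibility and H3K27ac, multiplied by its contact with the promoter. The sum of these products over all elements of a gene is called the gene total here, in arbitrary units. An ABC score is the fraction of the gene total that 1 element holds, and a connection is a pair with a score above 0.05. The authors deposited 1 table per condition for its 3 libraries together. Each value below is therefore a single number per condition, with no replicate error, no test and no p-value, and the sequencing depth behind it is unknown. Where 2 values of a gene or element are given together, the first is from Ctr-OPCs. In such cultures a different mix of cells and a different signal per cell cannot be told apart.

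The labelled cell type was checked against its markers. All 6 OPC markers were listed in both tables, with 14 and 13 connections in Ctr-OPCs and IFN-γ-OPCs and promoter activity quantiles of 0.851 to 0.982 and 0.815 to 0.994. Of 7 microglia markers, 4 were listed in Ctr-OPCs with gene totals of 0.342 to 1.08, and 6 in IFN-γ-OPCs with 0.488 to 1.78. Aif1 and Tmem119 were listed in IFN-γ-OPCs alone, and Trem2 in neither table. Of 6 astrocyte markers, 4 were listed in both tables, with gene totals of 0.682 to 1.89 and 0.878 to 1.70, and Aqp4 and Aldoc in neither. Of 5 markers of mature oligodendrocytes, 4 were listed in each table, with totals of 0.280 to 1.30 and 0.827 to 1.09, and their connections numbered 6 and 1. A promoter quantile above 0.9 was found for 4 of the 6 OPC markers in each table. No microglia, astrocyte or mature oligodendrocyte marker had one. The highest quantile of these other markers was 0.817 in Ctr-OPCs, below every OPC marker. In IFN-γ-OPCs it was 0.856 (Slc1a2, an astrocyte marker), so there the ranges overlapped. The part of other cell types in the results below was not tested.

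The promoters of the cholesterol synthesis enzymes stood high in the ranking of promoter activity in both conditions, while the transport genes as a group lay near the median of protein-coding genes. The quantile of promoter activity, a rank from 0 to 1 that the authors deposited for each target gene, had a median of 0.930 over the 21 cholesterol genes listed in Ctr-OPCs and of 0.889 over the 20 listed in IFN-γ-OPCs. Over all protein-coding target genes the medians were 0.804 and 0.803. A quantile above 0.9 was found for 12 of 21 and 10 of 20 of the cholesterol genes, and for 24.5% and 24.9% of protein-coding target genes. Among the synthesis enzymes it was found for 9 of 13 and 8 of 11. Among the transport and lipoprotein genes it was found for 1 of 5 in each table, with medians of 0.807 and 0.761, and among the sterol-sensing genes for 2 of 3 and 1 of 4. A list of fatty acid synthesis genes had medians of 0.931 and 0.923, with 11 of 17 and 10 of 17 above 0.9. Hmgcs1, which makes HMG-CoA at the entry of the mevalonate steps, had quantiles of 0.986 and 0.992. Idi1, the isomerase of isopentenyl pyrophosphate, had 0.990 and 0.982, and Sqle, the squalene epoxidase, 0.990 and 0.971. Insig1 had 0.996 and 0.997. Fdft1, the squalene synthase, was the lowest of the genes listed in both tables, with 0.646 and 0.536. The tables hold only genes with a quantile of at least 0.4 and an element scoring at least 0.02, so these medians leave out the genes that were not listed.

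Absent from both tables were 6 of the 29 genes, Mvk, Mvd, Ggps1, Lss, Tm7sf2 and Sc5d, all of them synthesis enzymes. Mvk and Mvd act in the mevalonate steps, and Ggps1 makes the geranylgeranyl chains used to anchor proteins. Lss closes squalene epoxide into lanosterol, and Tm7sf2 and Sc5d also act in the sterol steps. Absence from both tables was found for 20.7% of the cholesterol genes, for 31.6% of the 19 synthesis enzymes, and for 32.1% of 21951 protein-coding genes. The quantiles of the synthesis enzymes above thus cover 13 and 11 of 19. Cyp51 and Ebp, both of the sterol steps, and Srebf2 were listed in Ctr-OPCs alone (10.3%, beside 9.49% of protein-coding genes). Insig2 and Scap were listed in IFN-γ-OPCs alone (6.90%, beside 10.9%). All of these 5 genes had their highest score between 0.0209 (Srebf2) and 0.0333 (Ebp), not far above the lowest deposited score of 0.02. The remaining 18 genes were listed in both tables (62.1%, beside 47.5% of protein-coding genes).

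Listed pairs of element and gene numbered 40 and 50, and connections 6 and 8. Over all target genes there were 66637 and 71478 pairs, and 11648 and 12410 connections. More connections in IFN-γ-OPCs were found for 3 of the 23 genes, beside 14.9% of all target genes, and fewer for 2, beside 13.0%. Of the rest, 15 had 0 connections in both conditions, beside 19270 of all 32049 target genes. Idi1, Fdft1 and Abca1 had 1 in both. The genes with more were Hmgcs1 (0 and 2), Dhcr7 (0 and 1) and Apoe (1 and 2). Those with fewer were Sqle and Lpl (1 and 0 each). These shares lie near those of all target genes. Of the 6 connections in Ctr-OPCs, 4 were found again in IFN-γ-OPCs with an overlapping element. The share of all connections found again was not computed, so this count is not read as a trait of these genes.

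**Figure D1:**
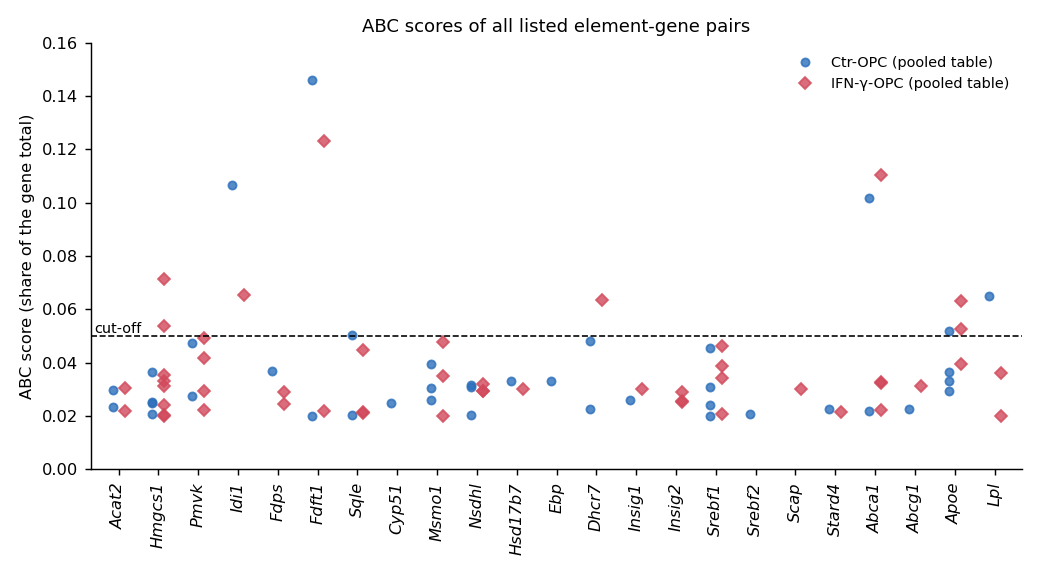
ABC score (vertical axis, fraction of the gene total) of every listed pair of the 23 genes, ordered by role, in the pooled Ctr-OPC table (40 circles) and the pooled IFN-γ-OPC table (50 diamonds). The dashed line is the score of 0.05 above which a pair is a connection: 6 circles and 8 diamonds lie above it, and the highest belong to Fdft1, Idi1 and Abca1.

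Counts of connections depended on the cut-off. Over all deposited pairs, with scores from 0.02, Dhcr7 had 1 pair fewer in IFN-γ-OPCs and Apoe 1 fewer, while Sqle and Lpl had 1 more, so the direction of these 4 genes was opposite. Hmgcs1, with 4 and 8 listed pairs, kept its direction. At a cut-off of 0.1 none of the 5 genes had a connection in either table. With scores that take contact from a power law of distance and not from HiChIP, the number of connections of each of these 5 genes was the same in both conditions, counted over the deposited pairs.

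**Figure D2:**
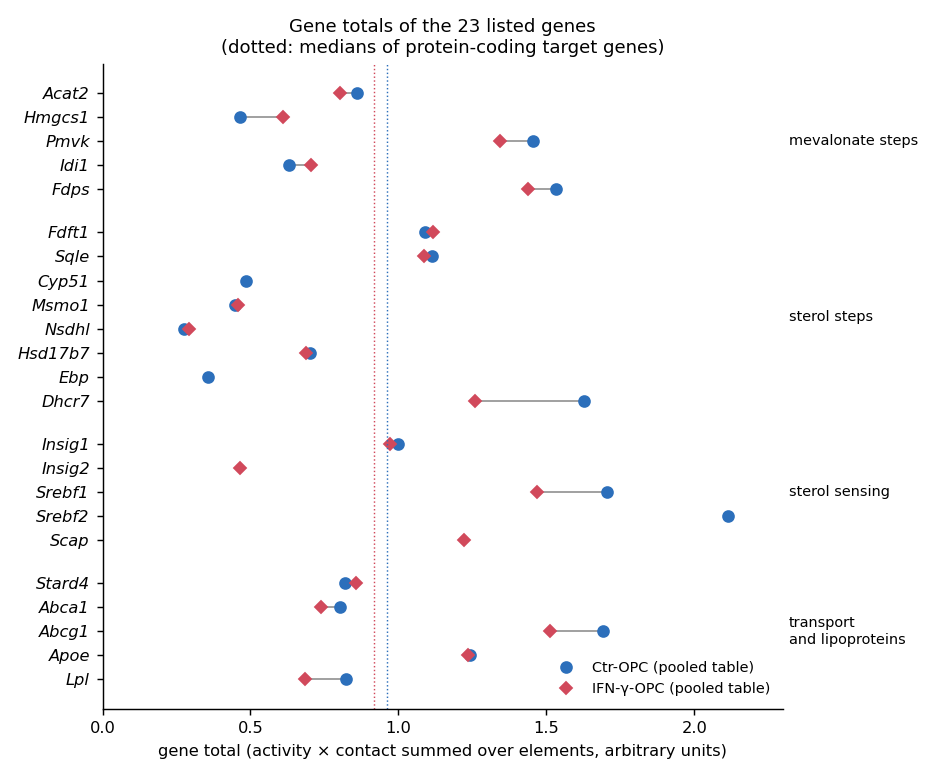
Gene totals (horizontal axis, arbitrary units) of the 23 listed genes by role, in the pooled Ctr-OPC table (circles) and the pooled IFN-γ-OPC table (diamonds), joined where a gene was listed in both; dotted lines mark the medians of protein-coding target genes, 0.963 and 0.916. Hmgcs1 lies 1.31-fold higher and Dhcr7 at 0.773-fold in IFN-γ-OPCs, and most other genes differ little.

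The gene totals of the 18 genes listed in both tables were close in the 2 conditions. The median log2 ratio of IFN-γ-OPCs over Ctr-OPCs was -0.04, beside -0.07 over all 20321 genes with a total in both tables. The SD over genes was 0.17 for the cholesterol genes and 0.19 for all genes. A total at least 1.2-fold higher in IFN-γ-OPCs was found for 1 of the 18, Hmgcs1, beside 6.47% of all genes. A total at least 1.2-fold lower was found for 1, Dhcr7, beside 7.53% of all genes. Both counts lie near the shares of all genes. The ratio was above 0 for 6 genes and below 0 for 12. Centred on the median of all genes, it was above 0 for 10 and the median became 0.03, so the list as a whole has no settled direction. For comparison, 3 interferon-induced genes listed in both tables had log2 ratios of 0.64 (Psmb8), 0.43 (Tap1) and 0.09 (B2m), and Irf1 was listed in IFN-γ-OPCs alone.

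Among the mevalonate enzymes, Hmgcs1 differed most between the conditions. Its total was 0.465 and 0.609, a log2 ratio of 0.39 and the highest of the 18 genes. Of all genes with a total in both tables, 97.4% had a lower ratio. Idi1 followed with 0.629 and 0.706 (log2 ratio 0.17). The other 3 were slightly lower in IFN-γ-OPCs. Acat2, which makes acetoacetyl-CoA, had 0.861 and 0.803, Pmvk, the phosphomevalonate kinase, 1.46 and 1.34, and Fdps, the farnesyl pyrophosphate synthase, 1.53 and 1.44.

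Hmgcs1 lies on chromosome 13 with its annotated start at 119690379 on the forward strand (mm10). Its promoter and the elements that crossed the cut-off are shown because Hmgcs1 had the highest ratio of gene totals of the list and 2 more connections. Capitals mark matches to 3 letter patterns, searched on both strands: TCACNCCAC for the sterol regulatory element, CCAAT for the NF-Y box and TTCNNNGAA for the γ-activated site. The promoter, chr13:119690101-119690350, is the 250 bases before the RefSeq start (GRCm38), which lies 28 bases before the annotated start. The elements are shown by their central 300 bases, chr13:119689209-119689508 and chr13:119754005-119754304, on the forward strand.
Hmgcs1 promoter: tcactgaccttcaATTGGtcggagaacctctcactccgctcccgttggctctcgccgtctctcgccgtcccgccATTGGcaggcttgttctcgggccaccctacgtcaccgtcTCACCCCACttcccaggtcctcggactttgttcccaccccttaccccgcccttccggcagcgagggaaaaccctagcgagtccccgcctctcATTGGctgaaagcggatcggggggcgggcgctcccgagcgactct
Hmgcs1 upstream element: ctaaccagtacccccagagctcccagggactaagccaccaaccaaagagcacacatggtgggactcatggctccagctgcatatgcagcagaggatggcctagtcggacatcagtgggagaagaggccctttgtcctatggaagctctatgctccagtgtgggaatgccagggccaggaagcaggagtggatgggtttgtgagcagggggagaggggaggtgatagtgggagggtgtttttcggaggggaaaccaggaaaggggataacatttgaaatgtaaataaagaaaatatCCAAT
Hmgcs1 distal element: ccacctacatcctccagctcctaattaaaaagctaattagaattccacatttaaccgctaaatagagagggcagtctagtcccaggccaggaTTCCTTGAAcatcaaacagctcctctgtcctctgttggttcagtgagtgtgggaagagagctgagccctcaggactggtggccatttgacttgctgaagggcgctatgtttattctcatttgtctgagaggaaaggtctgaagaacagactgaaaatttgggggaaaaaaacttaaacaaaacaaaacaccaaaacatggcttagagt

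The Hmgcs1 promoter held 1 match to the sterol regulatory element, 3 matches to CCAAT, and none to the γ-activated site. It was the only 1 of the 23 cholesterol genes with a RefSeq promoter window to hold the sterol pattern, which 1.42% of 16522 protein-coding genes held. The upstream element held 2 CCAAT matches, of which 1 lies in the shown stretch as its last bases, and the distal element 1 match to the γ-activated site. Matches to different patterns did not overlap in these sequences.

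The upstream element (chr13:119689109-119689608, intergenic) lay 1.02 kb before the start of Hmgcs1. In IFN-γ-OPCs it had an activity of 1.23, a contact of 0.0343 with Hmgcs1 and a score of 0.0715. In Ctr-OPCs no listed element for any target overlapped it. It had 4 other targets and scored highest for 1700074H08Rik, at 0.206. An element that is not listed may have scored below 0.02 or may not have been a candidate.

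The distal element (chr13:119753905-119754404 in IFN-γ-OPCs) lay 63.8 kb downstream in an intron of Nim1k. It was present in both tables. Its activity was 2.12 in Ctr-OPCs against 2.25 in IFN-γ-OPCs. Its contact with Hmgcs1 was 0.00423 and 0.0133, and the score 0.0248 and 0.0537. On the contact values adjusted with a pseudocount the difference was 2.67-fold, the largest contact ratio of the 24 pairs of cholesterol genes found in both tables. As a ratio to the contact that a power law of distance gives, the contact was 0.313 and 0.988. The power-law score, without measured contact, was 0.0199 and 0.0183. The element had 7 and 6 other targets and scored highest for Nim1k (0.126) in Ctr-OPCs and for Gm41077 (0.178) in IFN-γ-OPCs.

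Further elements of Hmgcs1 lay within Nim1k or far upstream. The upstream group had high activity and low contact. Its element in Ctr-OPCs, 74.3 kb away, had an activity of 6.09 and a contact of 0.000371. Its 3 elements in IFN-γ-OPCs, 73.1 to 79.5 kb away, had activities of 3.40 to 4.64 and contacts of 0.00210 to 0.00312. None of the 3 overlapped the Ctr-OPC element, and 2 of them share 1 contact value because contact was measured in bins of 5 kb.

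**Figure D3:**
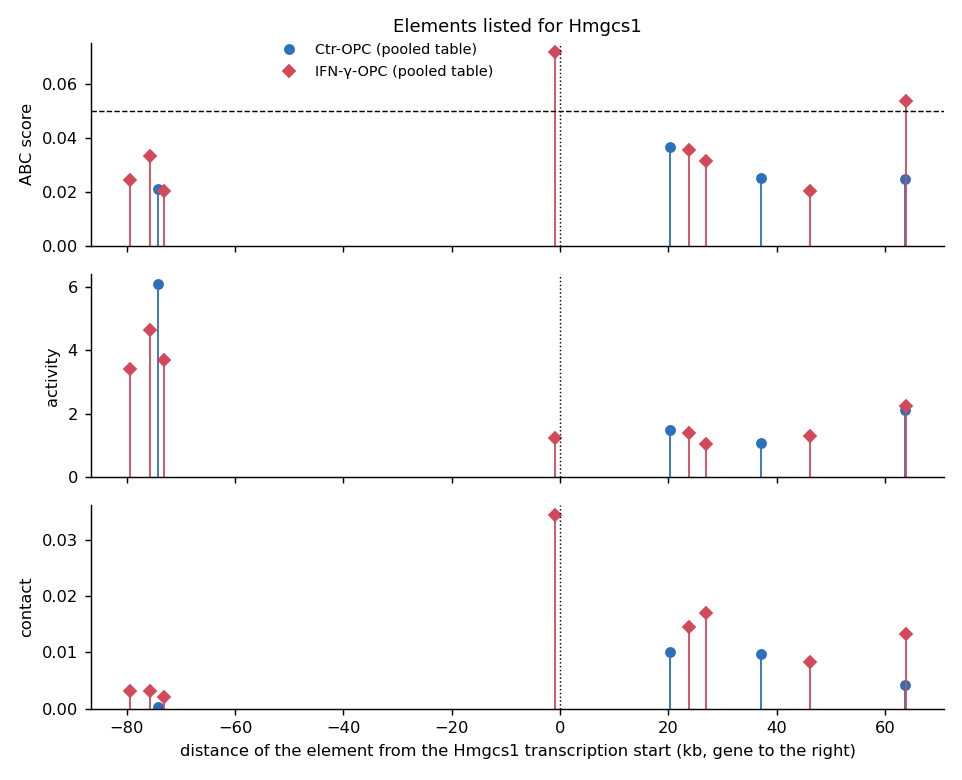
ABC score, activity and contact (vertical axes, top to bottom; activity and contact in arbitrary units) of the elements listed for Hmgcs1, against signed distance from its start in kb, in the pooled Ctr-OPC table (4 circles) and the pooled IFN-γ-OPC table (8 diamonds). The dashed line is the cut-off of 0.05: the element 1.02 kb upstream and the one 63.8 kb downstream exceed it in IFN-γ-OPCs, and the latter differs in contact (0.00423 and 0.0133) more than in activity (2.12 and 2.25).

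The gene total can be split into the part held by listed pairs and the rest, which holds promoters and elements below a score of 0.02. For Hmgcs1 the listed part was 0.0501 and 0.177, and the rest 0.415 and 0.433. Listed pairs thus held 10.8% and 29.01% of its total. For the other 17 of the 18 genes the rest differed by more than the listed part, as it did for 74.3% of all genes. For Dhcr7 the listed part was 0.115 and 0.0801, and the rest 1.51 and 1.18. A pair that passes the limit of 0.02 moves from the rest to the listed part, so the split depends on that limit.

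**Figure D4:**
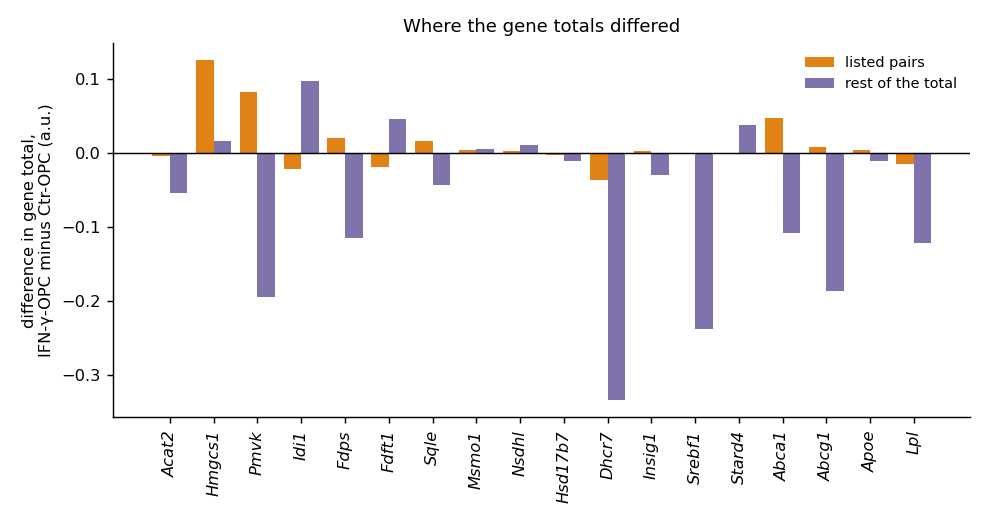
Difference in gene total (vertical axis, IFN-γ-OPC minus Ctr-OPC, arbitrary units) for the 18 genes listed in both tables, split into the part held by listed pairs and the rest of the total. Hmgcs1 is the gene whose listed part differs more (0.127) than the rest (0.0173), and Dhcr7 has the lowest bar, with a rest of -0.334.

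Other mevalonate genes had fewer listed elements. Idi1 had 1, in a UTR of Wdr37 14.4 kb away (chr13:8870895-8871394), and it was a connection in both conditions. The activity was 3.92 and 2.99, the contact 0.0159 and 0.0142, and the score 0.107 and 0.0656. The score thus was lower in IFN-γ-OPCs while the gene total of Idi1 was higher. The element served 20 and 14 other targets and scored highest for Gm48374, at 0.324 and 0.315. Pmvk had an element in Pbxip1, 5.12 kb away, with a contact of 0.0310 and 0.0580 and a score of 0.0274 and 0.0494, close to the cut-off in the latter. A second Pmvk element, inside the gene, scored 0.0474 and 0.0419. Acat2 and Fdps reached at most 0.0306 and 0.0368 in either table.

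Among the sterol enzymes, Fdft1 held the highest score of the list. Its element (chr14:63177771-63178270) overlapped a coding exon and UTR of the gene 1.56 kb from the start, and also an annotated start of another Fdft1 transcript. The activity was 4.33 in Ctr-OPCs against 3.32 in IFN-γ-OPCs, the contact 0.0355 and 0.0402, and the score 0.146 and 0.123. The gene total was 1.09 and 1.12.

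Dhcr7 encodes the reductase that finishes cholesterol, and its total was the lowest in IFN-γ-OPCs relative to Ctr-OPCs, at 1.63 and 1.26 (log2 ratio -0.37). Its element (chr7:143829822-143830321) lay 6.93 kb downstream of the start, in a UTR of Dhcr7 and over the start of another Dhcr7 transcript. Activity was 3.43 and 3.41 and contact 0.0216 and 0.0223. The score was 0.0481 and 0.0636. The element's activity and contact were thus nearly equal, and the score was higher in the condition with the lower gene total, of which each score is a fraction. A second element in Nadsyn1 scored 0.0228 in Ctr-OPCs and was not listed for Dhcr7 in IFN-γ-OPCs.

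Sqle had its highest score with an element in an intron of Mtss1, 338 kb away (chr15:58976485-58976984). The activity was 4.59 and 5.09, the contact 0.0110 and 0.00837, and the score 0.0504 and 0.0449. The score of Ctr-OPCs thus lay just above the cut-off and the score of IFN-γ-OPCs just under it. The contact was 3.48 times that expected from distance in Ctr-OPCs and 2.65 times in IFN-γ-OPCs. Its power-law score was 0.00821 and 0.00875. In IFN-γ-OPCs 2 more elements in Mtss1 were listed for Sqle, with scores of 0.0217 and 0.0211. The central 300 bases of the connected element, chr15:58976585-58976884, are shown because it was a connection in only 1 table. It was also the longest connection of the list. The shown bases hold 1 match to the γ-activated site, in capitals.
Sqle distal element: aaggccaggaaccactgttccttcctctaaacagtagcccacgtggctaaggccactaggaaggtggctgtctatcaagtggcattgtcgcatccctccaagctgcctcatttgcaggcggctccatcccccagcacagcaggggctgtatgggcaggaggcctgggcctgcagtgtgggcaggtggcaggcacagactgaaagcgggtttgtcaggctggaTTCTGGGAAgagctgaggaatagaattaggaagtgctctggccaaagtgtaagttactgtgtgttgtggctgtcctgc

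No other sterol enzyme had a connection. Msmo1, the methylsterol monooxygenase, had an intergenic element 5.26 kb away with scores of 0.0394 and 0.0478, and gene totals of 0.447 and 0.457. Nsdhl, which acts with Msmo1 in removing methyl groups, had the lowest totals, 0.277 and 0.291. An intergenic element 22.7 kb from Nsdhl had an activity of 0.461 in Ctr-OPCs against 0.879 in IFN-γ-OPCs, a 1.90-fold difference, with scores of 0.0204 and 0.0295. Hsd17b7, the keto reductase of the same complex, was listed with 1 element in each table, 191 and 167 kb away, with scores of 0.0330 and 0.0301 and totals of 0.700 and 0.688. Cyp51, the lanosterol demethylase, and Ebp, the sterol isomerase, each had 1 pair in Ctr-OPCs, scoring 0.0249 and 0.0333.

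None of the sterol-sensing genes had a connection in either condition. Srebf1, which encodes SREBP1, had the same 4 elements in both tables. Its closest element, 2.03 kb away, scored 0.0455 and 0.0461, and the element 13.2 kb away scored 0.0242 and 0.0342. The gene total of Srebf1 was 1.71 and 1.47 (log2 ratio -0.22). Insig1 had totals of 0.998 and 0.973, with 1 element that scored 0.0262 and 0.0302. Srebf2, which encodes SREBP2, the main activator of the synthesis genes, had the highest total of the list, 2.11 in Ctr-OPCs, and a single pair scoring 0.0209. Insig2 was listed in IFN-γ-OPCs with 3 elements, of which 2 lay 1217 and 1146 kb away, and Scap with 1 element in its own intron that scored 0.0301.

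Elements inside sterol-sensing genes were also assigned to other genes. Srebf2 held 4 elements in Ctr-OPCs against 3 in IFN-γ-OPCs, and none was listed for Srebf2 itself. Their targets were Gm49502, Shisa8 (in IFN-γ-OPCs) and Mir33, a microRNA within Srebf2 that represses Abca1, with top scores of 0.0394 (Gm49502) and 0.0436 (Mir33). Scap held 1 element and 6 elements, with top scores for 5830462I19Rik (0.0372 and 0.0474). Insig2 held 2 elements in each table, with top scores for Gm37174 (0.0694) in Ctr-OPCs and for Gm38283 (0.118) in IFN-γ-OPCs.

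Among the transport and lipoprotein genes, Abca1, the exporter of cholesterol to lipoproteins, had a connection to an element in its own intron 1.04 kb from the start (chr4:53158603-53159102). Activity was 1.17 and 1.05, contact 0.0685 and 0.0770, and score 0.102 and 0.110. The element had no other target. Listed pairs of Abca1 numbered 2 in Ctr-OPCs against 4 in IFN-γ-OPCs, and its totals were 0.801 and 0.740. Abcg1, another cholesterol exporter, had totals of 1.69 and 1.51 and 1 pair that scored 0.0226 and 0.0313. Stard4, a carrier of cholesterol between membranes, had 0.818 and 0.856 and 1 pair that scored 0.0228 and 0.0215.

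Apoe encodes the main apolipoprotein of the brain, and its total was nearly equal, 1.24 and 1.23. An intergenic element 30.0 kb away (chr7:19668971-19669470) was a connection in both conditions, with scores of 0.0519 and 0.0528. It was also listed for the neighbouring Apoc genes and scored highest for Clptm1, at 0.0858 and 0.0794. An element over exons of Tomm40, 2.05 kb from Apoe, was a second connection in IFN-γ-OPCs. Its activity was 1.10 and 1.47, its contact 0.0402 and 0.0521, and its score 0.0367 and 0.0633. The Ctr-OPC table held a separate element 4.05 kb away with a score of 0.0295, where the IFN-γ-OPC table listed none for Apoe, and the Tomm40 element itself was 1051 and 1490 bases long.

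Lpl, the lipase that releases fatty acids from lipoproteins, had the second-lowest total ratio, with 0.822 and 0.686 (log2 ratio -0.26). Its element 0.857 kb from the start (chr8:68881099-68881598), in an exon of a non-coding Lpl transcript, had an activity of 0.937 and 0.735. Its contact was 0.0559 and 0.0325 and its score 0.0651 and 0.0362, so both factors were lower in IFN-γ-OPCs. The element had no other target in either table. In IFN-γ-OPCs a second element 906 kb away was listed, at the lower limit of the deposited scores. The central 300 bases of the closer element, chr8:68881199-68881498, are shown because it was a connection in only 1 table. This pair also had the lowest score ratio of the pairs found in both tables. The shown bases hold no match to the 3 patterns.
Lpl element: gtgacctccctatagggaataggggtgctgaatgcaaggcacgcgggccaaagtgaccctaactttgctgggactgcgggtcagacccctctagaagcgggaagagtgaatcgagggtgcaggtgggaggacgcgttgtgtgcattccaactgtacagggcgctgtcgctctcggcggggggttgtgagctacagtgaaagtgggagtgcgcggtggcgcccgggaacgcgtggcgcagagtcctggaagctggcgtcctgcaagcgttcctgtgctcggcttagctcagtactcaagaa

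Over the 24 pairs of cholesterol genes found in both tables, activity and contact were centred near equality. The median log2 ratio of activity was 0.01, beside -0.09 over 17223 matched elements of all genes. At least 1.5-fold higher activity in IFN-γ-OPCs was found for 1 of the 24, the Nsdhl element, beside 9.26% of all, and at least 1.5-fold lower activity for 0, beside 13.6%. The median log2 ratio of adjusted contact was 0.00, beside 0.05 over 29858 matched pairs. At least 1.5-fold higher contact was found for 2 pairs, of Hmgcs1 and Pmvk, beside 12% of all, and at least 1.5-fold lower contact for 1, of Lpl, beside 8.33%. For the 9 pairs above the cut-off in either table the medians were -0.16 for activity and 0.16 for contact. How the authors scaled these values across conditions is not known, so the sign of a median near 0 is not interpreted.

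**Figure D5:**
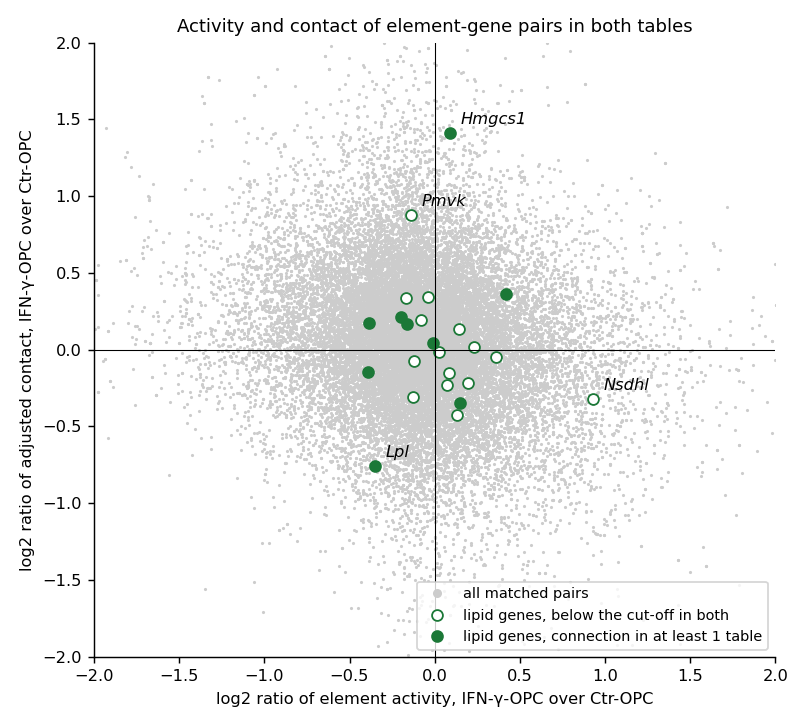
Log2 ratio of element activity (horizontal axis) and of adjusted contact (vertical axis), IFN-γ-OPC over Ctr-OPC, for 29858 pairs of all genes found in both tables (grey; 137 lie outside the plotted range) and the 24 pairs of cholesterol genes (filled where a pair scored above 0.05 in either table, which 9 did). Hmgcs1 (log2 contact ratio 1.41), Pmvk and Lpl differ more in contact than in activity, and the Nsdhl element in activity (0.93).

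Elements of the cholesterol genes were often shared with other genes, as were those of all target genes. A pair's element had another target in 30 of 40 pairs (75.0%) and 39 of 50 (78.0%), beside 70.2% and 69.7% of all pairs. For 9 of the 23 genes (Abcg1, Acat2, Dhcr7, Fdps, Hsd17b7, Idi1, Insig1, Nsdhl and Scap) every listed pair had a score within 1% of that of a target whose start lay within 5 kb. The share of all target genes for which this holds was not computed, so the count is not read as particular to these genes. The starts of Nsdhl and Cetn2 lay 146 bp apart, those of Hsd17b7 and 3110045C21Rik 168 bp, and those of Dhcr7 and Nadsyn1 296 bp. For Dhcr7 and Nadsyn1 the scores of the shared element were equal for both genes, at 0.0481 and 0.0636. In these pairs, 25 of the 90 in both tables, the predictions cannot tell the neighbouring targets apart.

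An element that held the start of another transcript of the target gene itself was found in 5 of 40 and 6 of 50 pairs, beside 2.65% and 2.37% of all pairs. These pairs belonged to Dhcr7, Fdft1, Pmvk and Srebf1. Pairs over 100 kb made up 3 of 40 (7.50%) and 11 of 50 (22.0%), beside 25.2% and 25.1% of all pairs. Over the pairs of cholesterol genes the median distance was 13.8 and 21.9 kb, beside 15.1 and 15.8 kb over all pairs.

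In promoter windows from 250 bases before to 50 after RefSeq starts, CCAAT was found for 19 of the 23 cholesterol genes with a window (82.6%), beside 42.1% of protein-coding genes with one. A gene counts here if any of its windows holds the pattern. Per window the share was 20 of 33 (60.6%), beside 37.4% of 32851 windows of all genes. The exceptions were Acat2, Scap, Abca1 and Apoe. Mvk, one of the genes absent from both tables, had 5 matches. The pattern of the γ-activated site was found for Ebp and Ggps1, 2 of 23 (8.70%), beside 9.02% of protein-coding genes. In 500-base elements of the cholesterol genes that pattern was found in 6 of 27 (22.2%) and 6 of 33 (18.2%), beside 14.6% and 15.7% of all such elements. CCAAT was found in 13 of 27 (48.1%) and 15 of 33 (45.5%), beside 46.3% and 46.5%. The sterol pattern was found in 1 of 27 and 0 of 33, beside 2.16% and 2.15%. A match is a description of letters and shows no binding.

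Related pathways were summarised in the same way. Of 18 fatty acid synthesis genes, 16 had totals in both tables, with a median log2 ratio of -0.07. Of these, 0 were at least 1.2-fold higher, and Acly, which supplies cytosolic acetyl-CoA, was lower by that fold (1.86 and 1.55, log2 ratio -0.27). Fasn, the fatty acid synthase, was next with 2.03 and 1.71, a log2 ratio of -0.25, and Elovl7 (0.12) and Me1 (0.05) had the highest ratios. Their connections numbered 13 and 14. Of 20 genes of sterol transport and oxidation, 13 had totals in both tables, with a median of -0.06. Ch25h, the cholesterol 25-hydroxylase, was highest at 0.423 and 0.527 (log2 ratio 0.32), followed by Lrp8 (0.16). Osbp, an oxysterol-binding carrier, was lowest at 0.979 and 0.710 (log2 ratio -0.46), followed by Npc2 (-0.21). Their connections numbered 6 and 4.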

How the data were processed

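For the 6 H3K27ac HiChIP libraries, the authors used HiC-Pro for mapping (build mm10) and removal of duplicate pairs, per the submitters' processing notes and the methods. They combined contacts with ATAC-seq and H3K27ac CUT&RUN in the ABC model and pooled the 3 libraries of a condition into 1 table. The labels name 1 contact map, yet contact values differed between the tables. The deposited ABC score is a fraction. Activity is a signal the authors derived from coverage. The power-law score, promoter quantile, contact, adjusted contact and product of activity and contact were used as the scores the authors deposited. The tables list scores from 0.02, without self-promoter pairs. Depth per library is not given.

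Gene totals were recovered as product divided by score (pairs of 1 gene differed by at most 1.002-fold). Pairs were matched by mutual best overlap of at least 1 bp. Folds of 1.2 for totals and 1.5 for activity and contact were used. Symbols, starts and exons came from GENCODE M21, promoter windows from RefSeq (GRCm38.p6), element sequences from that genome. Positions are 1-based. All 29 genes were named by role; other lists by the 2 highest and 2 lowest total ratios; sequences were shown for elements that were a connection in only 1 table, leaving out those in UTRs. Cut-offs, score type, distance, overlap, fold and scaling were varied as alternatives. Genes, lists and comparisons were chosen with earlier results of these data known. Python 3.11.15, pandas 2.3.3, NumPy 2.4.6 and matplotlib 3.10.9 were used, and the procedures were tested on simulated data. Of the interferon comparison, 1 gene is not reported here.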

Additional observations from a re-analysis of the deposited data

How the results depend on the processing

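No paired analysis was possible because each condition has 1 pooled table, and for the same reason no library could be left out. Over all deposited pairs (scores from 0.02) there were 40 and 50 pairs in Ctr-OPCs and IFN-γ-OPCs, 24 shared, with 8 genes having more and 5 fewer. There Dhcr7 and Apoe had a change of -1, and Sqle and Lpl of 1, opposite to the counts above 0.05. The cut-off of 0.1 left 3 and 2 connections, 2 shared, with 0 genes having more and 1 fewer (Idi1). With power-law scores there were 15 and 16, 12 shared, with 2 genes having more (Insig2 and Srebf1) and 1 fewer (Ebp). Insig2 was listed in IFN-γ-OPCs alone and Ebp in Ctr-OPCs alone, so the listing set the direction of these genes. Limited to pairs more than 5 kb apart there were 3 and 4, 2 shared, with 2 genes having more (Hmgcs1 and Dhcr7) and 1 fewer (Sqle). Genes listed in both tables gave the counts of all 23 genes, and a reciprocal overlap of at least 50% gave the same number of shared connections and the same medians of activity and contact. For none of these shared counts was a share over all target genes computed.

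The median log2 ratio of gene totals was 0.0304 after centring on all genes and 0.0141 over the 4 genes with a connection in both tables, against -0.04. At a fold of 1.5, 0 genes had a higher total and 0 a lower one. Dividing by each table's median moved the median log2 ratio of activity over connections from -0.16 to -0.0534 and that of contact from 0.16 to 0.12. Over every matched pair they were 0.0075 and 0.00174. The cause of these differences was not tested. With 1 table per condition and unknown depth, a score near 0.05, such as that of Sqle in Ctr-OPCs, cannot be placed on either side of the cut-off with known error.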
